A study of Mus musculus with 42 samples.

Results

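H3K27ac was compared between Nur77-deficient (KO) bone marrow-derived macrophages given lipopolysaccharide (LPS) for 18 h and KO macrophages left without it (0 h). The members are 6 of the 42 libraries of the series, the 3 titled KO at 18 h and the 3 titled KO at 0 h with the H3K27ac antibody, together with the 58728 regions obtained when the enriched regions of those 6 libraries were merged on overlap. Regions were split into 11433 promoter regions, which lay within 2500 bp of the start of a protein-coding gene, and 47295 distal regions. The series as a whole used chromatin immunoprecipitation with sequencing for H3K27ac and RNA polymerase II (Pol II), in wild type (WT) and KO macrophages, at 0, 1 and 18 h of LPS. WT H3K27ac, KO H3K27ac at 1 h and KO Pol II are used here beside the KO values. Cells of both genotypes came from femurs and tibias of male mice aged 6 to 12 weeks and were differentiated for 7 days in medium with 15% L929-conditioned medium, the source of the macrophage growth factor. LPS was used at 100 ng/ml. The treatment text of every library also lists 5 h, a time that no library title carries. KO mice descended from a cross of C57Bl6/J CMV-Cre mice, in which Cre is active throughout the body, with mice carrying a loxP-flanked Nr4a1 gene. The methods name C57Bl6/J only for the CMV-Cre parent. They state that Cre was bred out and that WT mice were littermates, whereas the genotype label of the KO libraries reads only cre and that of the WT libraries wt. A part of Cre in differences between KO and WT was not tested. The methods speak of biological replicates, and the labels do not say whether these were separate animals or cultures, so the p-values measure the spread between these libraries.

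LPS, a component of the outer membrane of Gram-negative bacteria, is sensed by Toll-like receptor 4. Within minutes to hours this activates the transcription factors NF-κB and AP-1 and, through secreted interferon beta, a later wave of genes bound by interferon regulatory factors and STAT proteins. Acetylation of histone H3 at lysine 27 marks active promoters and active enhancers. In resting macrophages many enhancers are held by the lineage factor PU.1 (Spi1), and activation is known to both remove acetylation from such sites and add it at sites that were not marked before. Nur77, encoded by Nr4a1, is an orphan nuclear receptor and an immediate early gene of macrophage activation.

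The sequences that the results turn on come first. The distal region with the greatest increase on the log2(normalized tags + 10) scale, with tags taken per 10 M tags of the library, held the start of Mir155hg, a non-coding gene that is the precursor of miR-155, a microRNA known as a mediator of macrophage activation. Its 5p arm lies at chr16:84714143-84714165 on the plus strand, and is shown with the seed, bases 2 to 8, in capitals (RefSeq, GRCm38.p6).

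miR-155-5p: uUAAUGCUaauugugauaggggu

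Promoter sequences of 300 bases around the RefSeq gene start (GRCm38.p6, 5′ to 3′ on the strand of the gene) are shown for 4 genes that gained acetylation and for Rasgrp3, which lost it. They were chosen for display because they hold matches, whereas the promoters of Clic5, which gained acetylation, and Cdk1, which lost it, held no match to a motif searched, and that of Cx3cr1, which lost it, held a MEF2 match and none to PU.1. Capitals mark matches to short motifs searched on both strands. The motifs were AP-1 (TGAGTCA), κB (GGGA, any base, then TTTCC), ISRE, the element of interferon regulatory factors (GAAA, any 2 bases, then GAAA), GAS, the element of STAT dimers (TTCNNNGAA), PU.1 (GAGGAAGT), MEF2 (CTA, any 4 bases, then TAG), C/EBP (TTGCGCAA) and NBRE, the element that NR4A receptors bind as monomers (AAAGGTCA). A match is a description of letters and not a bound site. Matches of different motifs were counted separately and may overlap. Cxcl10 lies at chr5:92348840-92349139 on the minus strand and holds an ISRE and an AP-1 match. Il6 lies at chr5:30012864-30013163 on the plus strand and holds an AP-1 and a κB match. Ifit1 lies at chr19:34640639-34640938 on the plus strand and holds 2 ISRE matches. Gbp5 lies at chr3:142496684-142496983 on the plus strand, 2956 bp from the start used for its values but inside its region, and holds GAS, ISRE and κB matches. Rasgrp3 lies at chr17:75435655-75435954 on the plus strand and holds a PU.1 match.

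Cxcl10: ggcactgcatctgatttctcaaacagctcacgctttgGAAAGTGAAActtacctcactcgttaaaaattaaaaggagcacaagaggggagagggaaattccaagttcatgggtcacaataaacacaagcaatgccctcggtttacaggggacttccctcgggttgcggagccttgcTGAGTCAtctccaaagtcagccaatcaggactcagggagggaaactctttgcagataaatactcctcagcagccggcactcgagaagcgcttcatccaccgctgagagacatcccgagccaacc

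Il6: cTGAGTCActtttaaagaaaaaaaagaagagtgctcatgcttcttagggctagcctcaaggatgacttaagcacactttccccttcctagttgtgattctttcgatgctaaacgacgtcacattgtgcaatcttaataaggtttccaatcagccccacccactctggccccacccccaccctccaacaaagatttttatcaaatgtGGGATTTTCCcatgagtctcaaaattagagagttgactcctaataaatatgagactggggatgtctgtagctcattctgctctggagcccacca

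Ifit1: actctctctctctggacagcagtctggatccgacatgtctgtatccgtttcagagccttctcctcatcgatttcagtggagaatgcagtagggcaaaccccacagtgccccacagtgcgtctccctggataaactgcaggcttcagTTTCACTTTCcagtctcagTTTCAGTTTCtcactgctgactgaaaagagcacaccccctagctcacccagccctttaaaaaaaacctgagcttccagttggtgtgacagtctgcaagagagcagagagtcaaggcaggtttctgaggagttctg

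Gbp5: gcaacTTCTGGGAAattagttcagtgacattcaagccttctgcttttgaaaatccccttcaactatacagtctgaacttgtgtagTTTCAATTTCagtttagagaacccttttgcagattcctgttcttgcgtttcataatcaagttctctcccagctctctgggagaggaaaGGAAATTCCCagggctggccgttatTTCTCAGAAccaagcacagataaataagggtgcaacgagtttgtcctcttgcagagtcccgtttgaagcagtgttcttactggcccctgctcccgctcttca

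Rasgrp3: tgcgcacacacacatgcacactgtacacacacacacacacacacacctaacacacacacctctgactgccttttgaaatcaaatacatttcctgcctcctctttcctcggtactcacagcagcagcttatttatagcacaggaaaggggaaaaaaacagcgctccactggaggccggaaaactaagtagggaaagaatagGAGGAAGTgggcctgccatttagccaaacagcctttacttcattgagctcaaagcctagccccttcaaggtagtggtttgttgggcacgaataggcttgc

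From distal regions among those with the largest changes, the stretch of 120 bases around the match nearest the centre of the region is shown on the forward strand (GRCm38). The match sought was AP-1, ISRE, κB or GAS in regions that gained acetylation, and PU.1, AP-1, MEF2 or C/EBP in regions that lost it. ISRE could thus not be centred in a losing region, nor PU.1 in a gaining one, and the motifs shown are no result. The first 4 stretches lie in regions that gained acetylation and the last 2 in regions that lost it. Their positions are chr16:84709920-84710039 in the Mir155hg region, chr3:14671811-14671930 near Car13, chr7:74695452-74695571 near Slco3a1, chr2:11690929-11691048 near Il15ra, chr13:85505252-85505371 near Rasa1 and chr12:79997026-79997145 near Zfp36l1. The capitals mark ISRE in the stretches of Mir155hg and Slco3a1, AP-1 in those of Car13 and Il15ra, PU.1 in that of Rasa1, and GAS and AP-1 in that of Zfp36l1.

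Mir155hg region: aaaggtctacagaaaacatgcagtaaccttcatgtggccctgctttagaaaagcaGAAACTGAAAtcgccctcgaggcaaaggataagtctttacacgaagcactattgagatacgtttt

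Car13: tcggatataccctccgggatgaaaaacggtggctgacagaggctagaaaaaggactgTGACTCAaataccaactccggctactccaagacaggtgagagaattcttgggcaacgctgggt

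Slco3a1: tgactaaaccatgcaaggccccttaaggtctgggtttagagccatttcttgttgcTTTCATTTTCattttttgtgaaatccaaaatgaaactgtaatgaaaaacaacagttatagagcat

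Il15ra: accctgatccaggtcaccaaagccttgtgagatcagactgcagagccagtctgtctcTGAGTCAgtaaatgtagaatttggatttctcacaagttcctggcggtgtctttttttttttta

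Rasa1: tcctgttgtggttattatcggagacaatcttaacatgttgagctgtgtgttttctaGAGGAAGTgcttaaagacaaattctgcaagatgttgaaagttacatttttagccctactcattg

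Zfp36l1: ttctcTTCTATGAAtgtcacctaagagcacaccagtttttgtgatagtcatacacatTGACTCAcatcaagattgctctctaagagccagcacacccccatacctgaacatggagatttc

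KO 0 h libraries held 35.0 to 38.8 M tags (M, mega) and KO 18 h libraries 31.3 to 55.4 M tags, of which 81.0% to 87.7% lay in enriched regions. All values are normalized tags, the tags in a region per 10 M tags of the library, and 0 stands for a library in which no stretch of the region passed the search. The 2 KO inputs, libraries without immunoprecipitation, were unlike each other, with 108461 regions at 0 h and 27554 at 18 h that took 15.6% and 6.18% of their tags. Spi1 and Csf1r, defining genes of macrophages, were acetylated at both times. At 0 h Spi1 had 1549, 1540.0 and 1504 normalized tags, and at 18 h 1031, 1955 and 1978. Csf1r, the receptor of the macrophage growth factor, had 664, 707 and 633 and then 789, 798 and 785 normalized tags. The defining marker genes of fibroblasts and stroma (8 of 8) were listed at 0 in all 6 libraries, as were 6 of 8 of T and NK cells, 4 of 8 of neutrophils, 2 of 5 of B cells, 4 of 6 of erythroid and mast cells and 2 of 5 of dendritic cells. The summed level of the neutrophil markers was 119 to 131 normalized tags at 0 h and 58.6 to 82.0 at 18 h. B cell markers had higher sums, with 231, 251 and 176 at 0 h and 242, 249.5 and 159 at 18 h. Dendritic cell markers had the highest, with 532, 497 and 528 at 0 h and 247, 614 and 458 at 18 h. Erythroid and mast cell markers summed to 44.9, 55.3 and 62.2 and then 98.02, 65.5 and 59.3. The sums of T and NK cell markers were lower than all of these.

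KO 18 h replicate 1 stood apart from replicates 2 and 3. Across 23912 regions its correlation with each of them was 0.911, whereas the value between replicates 2 and 3 was 0.995 and among the KO 0 h libraries 0.996 to 0.997. Replicates 2 and 3 correlated with the WT 18 h libraries at 0.978 to 0.982, and replicate 1 at 0.904 to 0.907. With KO 1 h replicates 2 and 3, replicate 1 correlated at 0.873 to 0.878 and the other two at 0.823 to 0.831, but with KO 1 h replicate 1 the order was the reverse, 0.814 against 0.834 and 0.836. KO 1 h replicate 1 also stood apart, at 0.909 and 0.912 with its replicates, which correlated at 0.993 with each other. These are correlations across regions, which share libraries and are no replicates. Of 40 regions found in the other 8 KO libraries and in none of the 6 WT libraries, 38 were found in replicate 1. The reverse pattern cannot be read in this way, as regions were merged from the 6 KO libraries at 0 h and 18 h. A region missing from the other 8 KO libraries therefore lay in replicate 1 by construction. Replicate 1 was also the deepest library, with 55.4 M tags. Counts of regions and of gene promoters are therefore also given without this library.

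Acetylation was redistributed over the genome at 18 h, with losses outnumbering gains when values were scaled to total tags, and the balance on other scales is given below. The KO 0 h libraries had 45580, 46255 and 47939 regions and the KO 18 h libraries 44752, 42191 and 40171. The 18 h libraries were all below the 0 h libraries. The means were 46591 ± 1215 and 42371 ± 2296 regions (SD, n = 3 each), a difference of -4220 with the smallest p that 3 libraries against 3 allow (exact two-sided permutation test, p = 0.1). Promoter regions held 43.8%, 43.5% and 43.5% of the tags of the 0 h libraries and 45.6%, 47.7% and 45.7% of those of the 18 h libraries. The groups did not overlap, and the share was higher by 2.76 percentage points at 18 h (exact two-sided permutation test, p = 0.1, n = 3 each). Of the promoter regions 83.4% were found in all 6 libraries, and of the distal regions 37.9%. A weak region can miss the search without a change, so these shares do not measure constancy.

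Regions entered the test when 2 or more libraries of either group had them, which left 48248. Of these, 18231 (37.8%) were called, with a Benjamini-Hochberg adjusted p under 0.05 from limma and an absolute log2 change over 1 on the scale log2(normalized tags + 10). Acetylation rose in 5971 regions (12.4%) and fell in 12260 (25.4%). Among distal regions 43.0% were called, and 5160 of 37305 rose (13.8%) and 10872 fell (29.1%). Among promoter regions 20.1% were called, and 811 of 10943 rose (7.41%) and 1388 fell (12.7%). Without KO 18 h replicate 1 the counts were 6013 (16.6%) and 11980 (33.1%) for distal regions and 898 (8.25%) and 1599 (14.7%) for promoter regions. Taken by their 6 values alone, 10485 regions (21.7%) had every 18 h library above every 0 h library and 20831 (43.2%) had every 18 h library below.

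The balance of gains and losses depended on the scale. The median log2 change was -0.37 over tested regions, -0.17 over promoter regions and -0.46 over distal regions, and regions found in all 6 libraries had a median of -0.20. When each library was centred on the median of the regions found in all 6 libraries, which removed a shift of -0.30, gains made up 50.2% of the calls instead of 32.8%, with 8788 regions higher and 8732 lower. For promoter regions centring turned the balance, from 36.9% gains to 59.7%, and for distal regions it raised the share from 32.2% to 48.8%. Quantile normalization gave 45.5% gains over regions, 50.4% over promoter regions and 44.8% over distal regions. On the centred scale losses still outnumbered gains at distal regions, with 7472 higher and 7844 lower, and after quantile normalization they did so over all regions, with 7695 higher and 9211 lower.

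**Figure D1:**
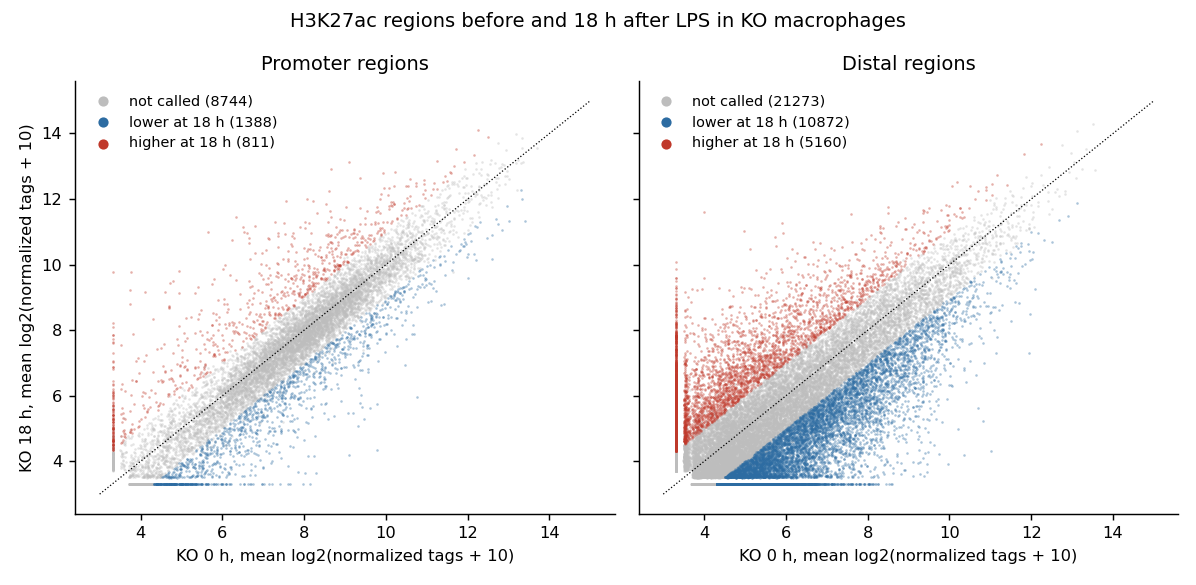
Mean log2(normalized tags + 10) of each tested region in the 3 KO 0 h libraries (horizontal axis) and the 3 KO 18 h libraries (vertical axis), for promoter regions (left) and distal regions (right). Points are regions, in red where acetylation rose, blue where it fell and grey where it was not called, and the dotted line marks equal values. In the distal panel 5160 regions rose and 10872 fell, many of them along the axes where a region was not found at one of the times.

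Many of the called distal regions appeared or disappeared from the region lists. Of the 5160 distal regions that rose, 2281 were listed at 0 in all 3 libraries at 0 h, and of the 10872 that fell, 3975 were listed at 0 in all 3 libraries at 18 h. At promoters 109 of the 811 that rose and 261 of the 1388 that fell were listed at 0 in this way. Promoter regions that rose were long, with a median of 5596 bp against 2704 bp for those that fell and 2982 bp for those not called. Distal regions that fell lay farther from a gene start, with a median of 37945.5 bp against 30619.5 bp for those that rose and 29221 bp for those not called. The region search without input leaves background in these counts, and 53.3% of distal regions that rose and 62.2% of those that fell overlapped a region of a KO input, beside 54.7% of those not called. Among regions that overlapped none, 2391 distal regions rose and 4089 fell.

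The same regions had other values that the call did not use. Pol II was found in at least 2 of 3 KO libraries at 37.9% of the distal regions that rose before LPS and at 70.0% of them at 18 h. For distal regions that fell, the shares were 58.6% and 27.2%, and for those not called 51.6% and 50.0%. At 1 h H3K27ac was found in at least 2 of 3 KO libraries at 65.4% of the distal regions that rose, beside 67.8% of those not called. Of the distal regions that rose and were listed at 0 before LPS, 35.1% were found at 1 h. In WT macrophages at 18 h, 90.9% of the distal regions that rose in KO were found in at least 2 of 3 libraries, beside 64.4% of those not called. Of the distal regions that fell in KO, 95.2% were found in WT at 0 h and 48.8% in WT at 18 h. For those not called the shares were 70.3% and 64.4%.

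Among promoter regions, those with the largest increases on the log2(normalized tags + 10) scale, an order that depends on the added constant for regions at or near 0 at one time, lay at Clic5, Rmi2, Gbp4, Slfn1 and Gbp5, and those with the largest decreases at Rasgrp3, Cmbl, Angptl4, Oacyl and Gprc5c. Gbp4 and Gbp5 encode guanylate-binding proteins, interferon-induced GTPases that act against intracellular pathogens, and Slfn1 belongs to the interferon-induced Schlafen family. The Gbp5 region (chr3:142492321-142506016), whose promoter is printed above with ISRE, κB and GAS matches, had 71.3, 65.8 and 73.4 normalized tags at 0 h and 2174, 3184 and 3204 at 18 h, a change of 5.14 ± 0.17 (SE; limma, adjusted p = 2.2e-05). The Slfn1 region (chr11:83114290-83127131) had 37.2, 60.4 and 28.9 and then 1529, 2473 and 2251 normalized tags. In both regions the 18 h values lay far above the 0 h values, with replicate 1 the lowest of the 18 h libraries.

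The Clic5 region (chr17:44185637-44194824) was listed at 0 in each 0 h library and had 722, 986 and 921 normalized tags at 18 h. Clic5 encodes a chloride intracellular channel protein. At Rmi2, which encodes a subunit of the complex that resolves recombination intermediates, the region (chr16:10836623-10847194) had 0, 6.23 and 5.67 and then 687, 982 and 965 normalized tags. The region at Gbp4 (chr5:105137042-105148709) overlaps the starts of Gbp4, Gbp8 and Gbp9 and had 0, 5.06 and 5.67 and then 270.1, 953 and 795 normalized tags. Guanylate-binding protein genes are close copies of each other, and how reads were divided among them is uncertain.

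On the losing side, Rasgrp3 encodes an exchange factor that activates Ras and Rap1. Its region (chr17:75434621-75444640) had 878, 872 and 874 normalized tags at 0 h and 0, 36.6 and 8.38 at 18 h, a change of -5.43 ± 0.54 (SE; limma, adjusted p = 3.8e-04). The region of Angptl4, an inhibitor of lipoprotein lipase (chr17:33778292-33784063), had 269.8, 270.2 and 274 at 0 h and was listed at 0 in each 18 h library. At Cmbl, which encodes a hydrolase (chr15:31562897-31568328), the values were 557, 525 and 542 and then 22.1, 0 and 8.98. The 0 h libraries agreed closely in these regions and the 18 h libraries were near or at 0.

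The region of Oacyl, on chromosome 18, had 1769, 1708 and 1699 normalized tags at 0 h and 171, 28.0 and 25.5 at 18 h. Gprc5c, an orphan G protein-coupled receptor gene (chr11:114849569-114853567), had 305, 300.5 and 299 and then 9.12, 0 and 0. Pol II was found in each of these 5 losing promoter regions at 0 h, and was listed at 0 in all 3 KO 18 h Pol II libraries in each of them.

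Of the distal regions, the Mir155hg region (chr16:84698630-84721319) had the largest increase on the log2(normalized tags + 10) scale. With 1 in place of 10 as the added constant its change was 8.79, below the 9.59 to 10.05 of the other 4 regions, which were listed at 0 at 0 h. It counted as distal because Mir155hg does not code for protein, and the nearest protein-coding start, of Mrpl39, was 14423 bp away. H3K27ac there was 5.29, 4.93 and 8.11 normalized tags without LPS, 1987, 1101 and 1147 at 1 h, and 1137, 5139.9 and 5084 after 18 h. Replicate 1 at 18 h was far below replicates 2 and 3 and in the range of the 1 h libraries, and all 18 h values were far above 0 h. The change was 7.60 ± 0.60 (SE; limma, adjusted p = 1.7e-04), and 8.32 without replicate 1. In the same region Pol II had 30.9, 13.5 and 32.6 normalized tags at 0 h and 4893, 5278 and 5612 at 18 h.

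The other 4 distal regions with the largest increases were listed at 0 in each KO 0 h library and had no Pol II region in a KO 0 h library. The region 22503 bp from the start of Car13, a carbonic anhydrase gene (chr3:14664230-14679368), had 1049, 1131 and 1009.5 normalized tags at 18 h, after 88.6, 262 and 292 at 1 h. The region near Slco3a1, a transporter gene (chr7:74690674-74700231, 135894 bp away), had 574, 1265 and 1115 at 18 h. Within Fpr3 (chr17:17912960-17920220), a formyl peptide receptor gene, a region had 640.1, 913 and 778. These regions were at similar levels in the 3 libraries at 18 h, apart from the lower replicate 1 near Slco3a1.

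A region 11193 bp from the start of Il15ra and overlapping Il2ra (chr2:11686170-11694097), genes for receptor chains of interleukin 15 and interleukin 2, had 656, 863 and 799 normalized tags at 18 h and 176, 30.6 and 46.6 at 1 h. Pol II at 18 h was 409, 378 and 399 normalized tags there.

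Among distal losses the leading region lay 212488 bp from the start of Rasa1 (chr13:85501618-85510767), with 2065, 2116 and 2053 normalized tags without LPS, 250.1, 182 and 177 at 1 h, and 0, 18.1 and 17.4 after 18 h. Its change was -6.72 ± 0.41 (SE; limma, adjusted p = 7.4e-05). The regions 36792 bp from Pex5 (chr6:124371877-124378275) and 110056 bp from the start of Hs3st1, inside that gene (chr5:39628249-39645419), fell by 6.16 and 6.06 on the log2 scale. A RefSeq promoter of Hs3st1 (chr5:39644582-39644881, minus strand) lies inside that region, so that it would count as a promoter region under RefSeq. The values of the Pex5 region were 1288, 1292 and 1312 at 0 h and 12.3, 5.43 and 7.63 at 18 h. In each of these 3 regions the 1 h values were already below the 0 h values.

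A region 109837 bp from Zfp36l1, which encodes an RNA-binding protein that promotes mRNA decay (chr12:79991648-80003176), had 678, 638 and 657 normalized tags and then 0, 5.91 and 0. A region on chromosome 11 nearest to 5730522E02Rik (chr11:26082040-26087096) had 682, 693 and 697 and then 10.3, 0 and 0. Pol II was present in each of the 5 losing distal regions at 0 h, with 101 to 657 normalized tags, and was listed at 0 in all 3 KO Pol II libraries at 18 h.

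**Figure D2:**
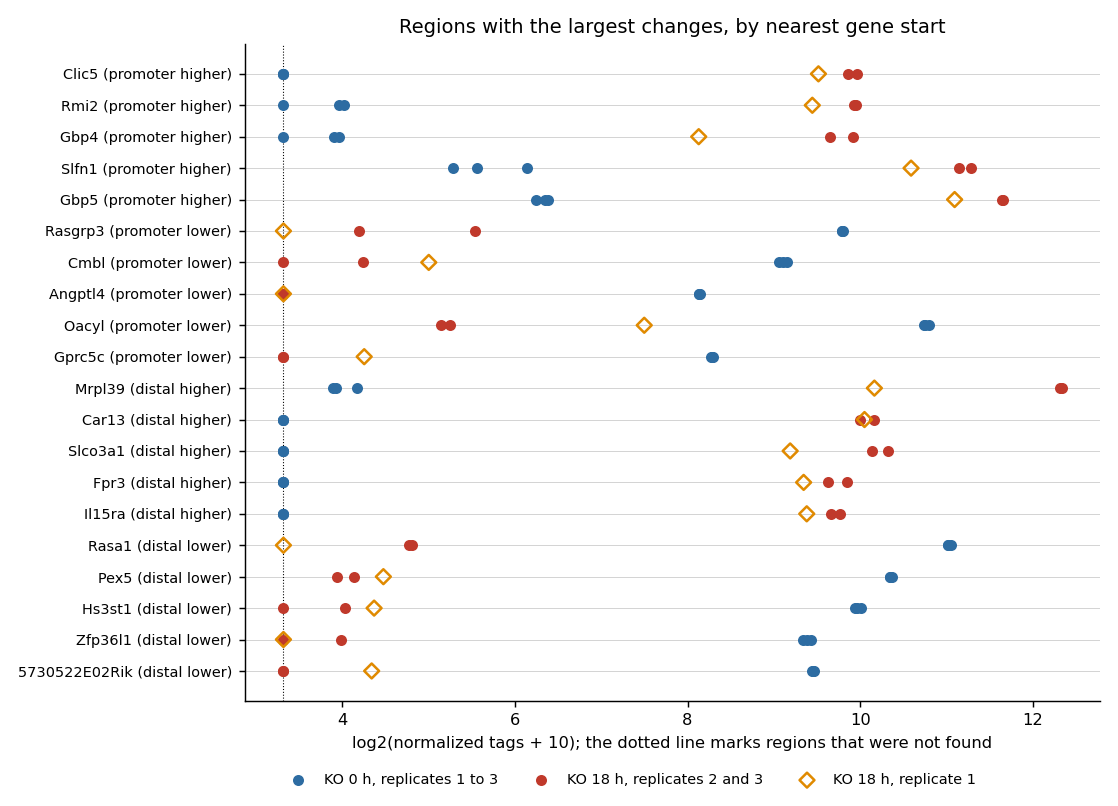
Values of the 20 regions with the largest changes, as log2(normalized tags + 10), in KO 0 h libraries (blue), KO 18 h replicates 2 and 3 (red) and KO 18 h replicate 1 (open diamonds). Rows carry the nearest gene start, and the region beside Mrpl39 is the Mir155hg region, where replicate 1 had 1137 normalized tags and the others 5139.9 and 5084. The dotted line marks a region that was not found.

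Values were also summed within 2500 bp of each gene start, which gave 11986 tested gene promoters. Acetylation rose at 725 of them (6.05%) and fell at 1208 (10.1%), and their median log2 change was -0.15. Without replicate 1 there were 801 (6.70%) and 1400 (11.7%). Centred on the median of the gene promoters found in all 6 libraries, 829 rose and 1030 fell. That centring moved the median change only from -0.15 to -0.05, less than the shift removed for regions, and gene promoters were not tested with that larger shift. After quantile normalization 911 rose and 860 fell. In a window of 1000 bp, which is given for some lists, 496 of 11458 tested rose and 855 fell. Neighbouring genes whose starts lie in 1 region share its tags, so that the pairs Ccl2 and Ccl7, Rsad2 and Cmpk2, Tap1 and Psmb9, Gbp4 and Gbp9, Igtp and Irgm2, and C1qb and C1qc are not independent. A fitted change of a gene listed at 0 at one time depends on the constant of 10 that is added before the logarithm, and is given as values only.

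The interferon-response genes rose together. All 23 that were tested were called higher, with a median change of 2.53 and a range from 1.10 for Irf9 to 3.70 for Ifit1, and the same 23 were higher without replicate 1 (median 2.68). In a window of 1000 bp instead of 2500 bp 20 of the 23 were called higher (median 1.86). Ifit1, which encodes a protein that binds viral RNA, had 58.4, 64.9 and 60.0 normalized tags at 0 h and 589, 1027 and 1265 at 18 h, a change of 3.70 ± 0.27 (SE; limma, adjusted p = 1.4e-04). Zbp1, a sensor of double-stranded nucleic acids, had 88.7, 97.9 and 85.2 and then 723, 1346 and 1413. Isg20, an exonuclease gene, had 122, 115 and 111 and then 1192, 1173 and 1153, a change of 3.24 ± 0.07 (SE; limma, adjusted p = 9.0e-06). The 18 h values of Ifit1 and Zbp1 were lowest in replicate 1, and those of Isg20 were alike in the 3 libraries. Oas3, which makes the second messenger that activates RNase L, rose by 3.35.

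The interferon-inducible GTPases, which attack the vacuoles of intracellular microbes, had the highest median of the lists. All 12 rose, with a median change of 3.07, and 10 were called in the window of 1000 bp (median 2.17). Gbp5 had 26.6, 31.0 and 28.2 normalized tags at 0 h and 835, 998 and 947 at 18 h (log2 change 4.60 ± 0.11 SE, limma adjusted p = 1.1e-05). Iigp1, on chromosome 18, was listed at 0 in each 0 h library and had 223, 593 and 591 at 18 h. Irgm1 had the smallest change of the list, 1.39, from a high level of 889, 885 and 871 at 0 h.

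Antigen presentation genes rose at 12 of 20 tested and none fell, with a median of 1.26. In the window of 1000 bp the counts were smaller, with 5 higher, 1 lower and a median of 0.77. Nlrc5, the transactivator of MHC class I genes, had 131, 126 and 132 and then 579, 556 and 523 normalized tags (log2 change 2.01 ± 0.08 SE, limma adjusted p = 2.9e-05). Cd40, a costimulatory receptor, had 72.4, 74.6 and 74.0 and then 442, 284 and 276, and Tapbp, which loads peptide onto MHC class I, rose by 1.82. Icosl, the ligand of the T cell costimulator ICOS, rose by 1.78. The MHC class II transactivator Ciita was not called at its promoter, with 41.1, 49.9 and 41.1 at 0 h and 12.4, 28.1 and 17.0 at 18 h.

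Cytokine genes rose at 10 of 18 tested promoters, and none fell (median 1.11), and in the window of 1000 bp 6 rose. Il6 had the largest change of the list on the log2(normalized tags + 10) scale. It went from 21.1, 14.3 and 18.7 normalized tags at 0 h to 335, 388 and 319 at 18 h (log2 change 3.67 ± 0.15 SE, limma adjusted p = 2.9e-05). With 1 in place of 10 its change was 4.20, below the 4.33 of Il12a, which was listed at 0 at 0 h. The 3 Il6 values at 18 h were alike and well above the 1 h values of 160.2, 77.0 and 70.5. Il27, a subunit of an interleukin that limits T cell responses, had 73.1, 73.1 and 66.6 and then 317, 493 and 497. Il1a and Tnfsf15 rose by 1.96 and 1.83, and Il1rn, Il15, Il18 and Inhba by 1.37, 1.09, 1.496 and 1.12.

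Il1b and Il12a were called on values that were uneven at 18 h. Il1b, which encodes a pyrogenic cytokine, had 63.2, 69.9 and 85.5 normalized tags at 0 h and 100.4, 279 and 229 at 18 h, replicate 1 being the low one. Its change was 1.26 ± 0.36 (SE; limma, adjusted p = 0.029). Without replicate 1 it was 1.67 and called, and leaving out any 1 of the other 5 libraries took the call away, at changes of 0.98 to 1.36. Il12a was listed at 0 at 0 h and had 4.11, 46.4 and 32.5 at 18 h, with the same dependence on each library but replicate 1. Tnf was not called, with 682, 517 and 502 at 0 h and 567, 846 and 988 at 18 h (log2 change 0.47), and neither was Il12b, with 0, 0 and 6.82 and 7.41, 6.23 and 5.54.

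Chemokine genes rose at 7 of 16 tested promoters and 1 fell (median 0.55). Ccl5, which attracts T cells and monocytes, had 18.8, 12.3 and 6.9 normalized tags at 0 h and 496, 1126 and 1107 at 18 h (log2 change 5.29 ± 0.36 SE, limma adjusted p = 1.2e-04). Cxcl10, the interferon-induced ligand of CXCR3 whose promoter is printed above with an ISRE and an AP-1 match, had 14.7, 9.47 and 9.14 and then 458, 987 and 1017 (log2 change 5.22 ± 0.32 SE, limma adjusted p = 8.4e-05). In both, the 0 h and 18 h values were far apart, and replicate 1 was the lowest of the 18 h libraries. Ccl12, Ccl7, Ccl2 and Ccrl2 rose by 2.17, 2.04, 1.59 and 1.47. The gene that fell was Ccr2, the receptor that draws monocytes out of the bone marrow, with 158, 137 and 157 at 0 h and 53.4, 45.9 and 35.7 at 18 h (log2 change -1.56 ± 0.16 SE, limma adjusted p = 5.4e-04).

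Early LPS genes were mixed, with 4 of 18 higher and 2 lower (median 0.29), and 2 higher and 2 lower in the window of 1000 bp. Ptgs2, which encodes the inducible cyclooxygenase, had 12.7, 15.7 and 19.8 normalized tags at 0 h and 192, 215 and 263 at 18 h (log2 change 3.16 ± 0.18 SE, limma adjusted p = 6.1e-05). Nfkbia, Tnfaip3 and Ccl4 rose by 1.53, 1.19 and 1.05, and Ccl4 lost the call at 0.96 to 0.98 without KO 0 h replicate 3, KO 18 h replicate 2 or KO 18 h replicate 3. Egr2 fell, with 248, 318 and 314 and then 116, 72.1 and 62.1 (log2 change -1.73 ± 0.23 SE, limma adjusted p = 0.0014), and Klf2, a repressor of inflammatory genes, fell by 1.35. Genes of NF-κB and of Toll-like receptor feedback rose at 8 of 22 and none fell (median 0.59), and in the window of 1000 bp 5 rose. Of these Socs3, an inhibitor of cytokine signalling, had 21.7, 18.3 and 22.7 and then 531, 533 and 469 (log2 change 4.08 ± 0.12 SE, limma adjusted p = 1.9e-05), values that were alike in the 3 libraries of each time. Socs1 and Nfkbib rose by 1.70 and 1.45.

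Of the AP-1 factors, which bind DNA as dimers and respond within minutes to LPS, 1 of 20 tested rose at its promoter, 1 fell and the median was 0.03. Batf rose, with 23.9, 31.1 and 20.3 normalized tags at 0 h and 208, 186 and 157 at 18 h (log2 change 2.47 ± 0.17 SE, limma adjusted p = 1.3e-04). Fosl2 fell, with 852, 815 and 850.1 and then 572, 278 and 278 (log2 change -1.22 ± 0.27 SE, limma adjusted p = 0.012), replicate 1 being the high one. Jun had 1061, 1024 and 1011 and then 922, 917 and 893 (log2 change -0.18), and Fos had 595, 712 and 693 and then 476, 492 and 643 (-0.32), neither past the threshold. The changes of Junb and Jund were 0.13 and 0.02, and quantile normalization turned both below 0, to -0.049 and -0.073.

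Atf3 depended on a single library. Its promoter had 22.3, 26.1 and 27.7 normalized tags at 0 h, and 696, 50.5 and 34.1 at 18 h, so that replicate 1 lay far above replicates 2 and 3. The fitted change was 1.81 ± 1.00 (SE), not past the threshold, and 0.55 without replicate 1. Pol II over Atf3 had no call either, with a change of 0.88.

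Of the NR4A receptors, Nr4a1 itself fell at its promoter, from 84.4, 61.4 and 74.6 normalized tags to 5.33, 6.87 and 0 (log2 change -2.59 ± 0.24 SE, limma adjusted p = 3.5e-04). With 18 h values near 0 this change depended on the added constant, from -1.19 with 50 to -4.33 with 1. WT had 85.5, 68.5 and 74.4 at 0 h and 14.3, 6.33 and 22.1 at 18 h, and the difference between the changes was not past the test (interaction -0.72, limma, adjusted p = 0.33). The start of the gene was thus acetylated at 0 h in both genotypes, and whether the window contains the deleted part is not given in the sources used here, so these values do not check the deletion. Nr4a2 and Nr4a3 had changes of -0.57 and -0.36 and were not called. Igsf3, which encodes a membrane protein of the immunoglobulin superfamily, was listed at 0 in all 6 libraries.

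Genes of arginine, itaconate and nitric oxide metabolism rose at 7 of 13 and fell at 2 (median 1.09). Without replicate 1, 7 of 12 tested rose and 3 fell (median 1.66). Nos2, the inducible nitric oxide synthase, had 0, 5.71 and 0 normalized tags at 0 h and 474, 597 and 519 at 18 h (log2 change 5.53 ± 0.22 SE, limma adjusted p = 2.9e-05). As the 0 h values were at or near 0, this change ran from 3.48 with a constant of 50 to 8.13 with a constant of 1. Acod1, which makes the metabolite itaconate, had 18.4, 26.2 and 22.1 and then 776, 888 and 901 (log2 change 4.75 ± 0.13 SE, limma adjusted p = 1.6e-05). For Nos2 the 1 h values were 28.3, 72.8 and 164, and for Acod1 they were 500.5, 489 and 442, and in both genes the 1 h libraries lay between the 0 h and the 18 h libraries. Sod2, the mitochondrial superoxide dismutase, rose by 2.57. Slc7a11, the cystine transporter, had 61.1, 61.4 and 63.2 and then 905, 417 and 355 (log2 change 2.86 ± 0.33 SE, limma adjusted p = 8.6e-04), with replicate 1 above the others. Mt2, a metallothionein, fell by 1.08, a call that was lost without KO 0 h replicate 1 or 2 or KO 18 h replicate 2 or 3.

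Glycolysis and hypoxia genes rose at 4 of 15 (median 0.52), at 2 without replicate 1 and at 2 in the window of 1000 bp. Hk3, a hexokinase, rose by 1.48, and Hif1a, the hypoxia-inducible factor, had 13.9, 18.2 and 22.5 and then 72.5, 66.9 and 46.7 normalized tags (log2 change 1.35 ± 0.21 SE, limma adjusted p = 0.0026). Slc16a3 and Bnip3 rose by 1.16 and 1.15 and had 0.91 and 0.89 without replicate 1, just under the threshold.

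**Figure D3:**
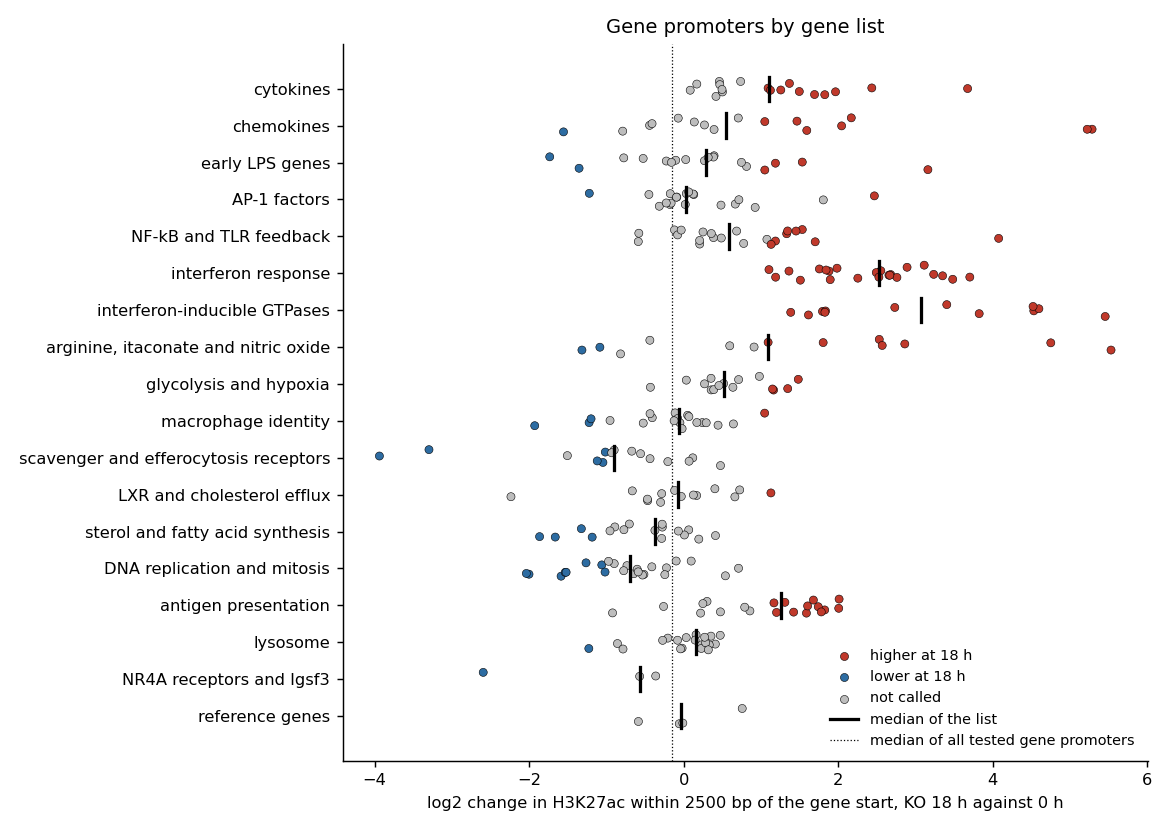
Log2 change in H3K27ac within 2500 bp of the gene start, KO 18 h against 0 h, for each tested gene of 18 gene lists. Each point is a gene, in red if it was called higher, blue if lower and grey if not called, black ticks are list medians and the dotted line is the median of all 11986 tested gene promoters, -0.15. The interferon-response genes and interferon-inducible GTPases lie wholly to the right, with medians of 2.53 and 3.07, while scavenger and efferocytosis receptors lie on both sides of 0, with a median of -0.90, and -0.46 without replicate 1.

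Promoters of scavenger and efferocytosis receptors, which clear dead cells and modified lipids, lost acetylation at 5 of 15 tested, and none rose. The median was -0.90 with all libraries and -0.46 without replicate 1, and the count was 5 in both cases, 3 when gene promoters were centred and after quantile normalization, and 2 in the window of 1000 bp. C1qa, a chain of the complement component that opsonizes dying cells, had 518, 541 and 539.7 normalized tags at 0 h and 0, 63.4 and 50.4 at 18 h (log2 change -3.94 ± 0.72 SE, limma adjusted p = 0.0055). Gpr34, a receptor for lysophosphatidylserine, had 253, 242 and 235 and then 41.7, 5.59 and 11.2 (log2 change -3.30 ± 0.42 SE, limma adjusted p = 0.0013). Trem2, a lipid-sensing receptor, fell by 1.12, and Gas6, the bridging ligand of Mertk and Axl, by 1.05, a call that was lost without KO 0 h replicate 1 or 3 or KO 18 h replicate 2 or 3. Itgb5 was the fifth. Mertk itself was not called, with 293, 308 and 306 and then 88.0, 342 and 348, a change of -0.44 that turned to 0.18 without replicate 1.

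Macrophage identity genes as a list did not move to one side, with 1 of 20 higher, 3 lower and a median of -0.06. Cebpb, a factor of inflammatory gene expression, rose by 1.05. It was under the threshold, at 0.83 to 0.997, in 4 other fits. These were a constant of 50, quantile normalization, leaving out KO 18 h replicate 2 and the window of 1000 bp. Cebpa, its relative in myeloid differentiation, fell from 590.2, 606 and 563 to 224, 263 and 250.2 normalized tags (log2 change -1.22 ± 0.08 SE, limma adjusted p = 1.2e-04). Itgam, which encodes CD11b, fell from 728, 777 and 783 to 293, 365 and 325 (log2 change -1.20 ± 0.09 SE, limma adjusted p = 1.9e-04). In both the groups were well separated. Cx3cr1, the fractalkine receptor gene, had 35.3, 27.9 and 22.1 at 0 h and was listed at 0 in each 18 h library, whereas Pol II over the gene had a change of 0.98. The lysosome list had 1 of 20 lower, Atp6v0d2 (log2 change -1.23 ± 0.09 SE, limma adjusted p = 1.7e-04), and 3 lower without replicate 1.

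Of 14 tested genes of LXR and cholesterol efflux, Npc2 rose by 1.13 and none fell (median -0.07, and 0.07 without replicate 1). Apoe, which carries cholesterol out of macrophages, had 355, 345 and 347 normalized tags and then 8.5, 150.0 and 139. It was not called with all libraries (adjusted p = 0.062, limma) and was called without replicate 1, with a change of -1.21. Sterol and fatty acid synthesis genes fell at 4 of 17 (median -0.37). Scd1, a fatty acid desaturase, had 21.7, 17.5 and 26.4 at 0 h and was listed at 0 in each 18 h library. Fasn fell by 1.32 and Elovl6 by 1.18, and Fasn was not called without KO 0 h replicate 2 or 3 or without KO 18 h replicate 1 (-0.98).

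DNA replication and mitosis genes fell at 8 of 24, none rose and the median was -0.69. The count was 10 without replicate 1, 6 when gene promoters were centred and 5 after quantile normalization. Cdk1, the kinase that drives entry into mitosis, had 312, 317 and 318 normalized tags at 0 h and 52.0, 93.0 and 68.5 at 18 h (log2 change -2.04 ± 0.19 SE, limma adjusted p = 3.5e-04). Top2a, a topoisomerase needed to separate chromosomes, had 103, 107 and 104 and then 6.32, 32.6 and 23.6. Mcm5, of the replicative helicase, and Rrm2, of ribonucleotide reductase, fell by 1.59 and 1.53. The groups did not overlap in these 4 genes. Pol II over the genes of this list fell at 12 of 24 and rose at 2 (median -0.93), and Mcm5 was 1 of those 2, with a change of 1.92. Of marker genes of other cell types, Camp rose from a listing at 0 to 25.2, 39.3 and 28.6, and Elane and Cebpe fell by 1.67 and 1.16. Lck, a T cell kinase gene, had 8.57, 11.6 and 14.0 at 0 h and was listed at 0 in each 18 h library. The part of such cells in the other results was not tested, and in bulk samples fewer cells of a kind and less of the mark per cell cannot be told apart.

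The reference genes were not called. Their changes were -0.59 for Rplp0, -0.06 for Hprt, -0.01 for Actb and 0.76 for Gapdh. Actb had 1595, 1537 and 1594 normalized tags at 0 h and 1003, 1901 and 1999.6 at 18 h, and its sign turned without replicate 1, to 0.31.

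Each distal region was also assigned to its nearest gene start, and the genes with the most called distal regions were counted, a number that follows how many were tested near each. These counts had no limit of distance, and over all tested distal regions 13.8% rose and 29.1% fell. Within 100 kb of the nearest gene start, the limit for the gene lists below, 4263 of 30448 tested distal regions rose (14.0%) and 8400 fell (27.6%). Zeb2, a repressor that maintains macrophage identity, was nearest to 62 tested distal regions, of which 26 fell and 1 rose. Without replicate 1, 27 fell and 4 rose near Zeb2. Mef2c had 23 of 30 lower, Cited2 21 of 54, Myc 21 of 48 and Hdac9 20 of 31. Without replicate 1 these genes had 22, 26, 25 and 21 lower. The promoters of Zeb2 and Cited2 themselves did not pass the size threshold, with changes of 0.08 and -0.21, and those of Mef2c and Hdac9 were listed at 0. The Myc promoter fell from 511, 467 and 422 normalized tags to 248, 84.7 and 86.8 (log2 change -1.83 ± 0.38 SE, limma adjusted p = 0.0092). On the gaining side Klf6 had 12 of 53 distal regions higher beside 17 lower, Slco3a1 11 of 14 higher, Ctsc 10 of 22, Id2 10 of 33, Pfkfb3 10 of 16 and Rapgef2 10 of 15. Without replicate 1 Klf6 had 11 higher beside 20 lower. Slco3a1, Ctsc, Id2 and Pfkfb3 then had 11 higher each and Rapgef2 10.

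Distal regions within 100 kb of their nearest gene start were also counted by gene list. Over all such regions 14.0% rose and 27.6% fell. The balance around a list was not always that of its promoters. Around genes of NF-κB and Toll-like receptor feedback 41 of 106 rose and 15 fell, with 8 of 16 higher near Tnfaip3 and 7 of 13 near Socs1. For cytokine genes 28 of 81 rose and 11 fell, among them 5 of 9 near Il6. Around interferon-inducible GTPases 13 of 22 rose and none fell, and without replicate 1 the counts were 16 and 1. Around scavenger and efferocytosis receptors 2 of 60 rose and 29 fell, with 7 of 8 lower near Gpr34, and around LXR and cholesterol efflux genes 3 of 56 rose and 20 fell. Without replicate 1, 4 rose and 29 fell around the former and 5 rose and 22 fell around the latter. Around chemokine genes 6 of 30 rose and 9 fell, and around DNA replication and mitosis genes 9 of 40 rose and 6 fell. For early LPS genes the counts were 19 and 17 of 75, and for AP-1 factors 8 and 17 of 51. The counts for chemokine genes and AP-1 factors lay near the shares over all distal regions within 100 kb.

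Summed over windows of 100 kb, a size chosen after the values were seen, the window of Fth1, the ferritin heavy chain gene, gained the most, from 13569, 13392 and 13364 normalized tags at 0 h to 23260.4, 30152.8 and 30249 at 18 h. Windows of Pdcd1lg2, which encodes the checkpoint ligand PD-L2, of Slamf7 and Cd48 and of Tnfrsf1b were among the other largest gains. The largest loss lay in the window of Ccr3, from 15448, 15572 and 15369 to 4327, 5742 and 5084.5, in the chemokine receptor cluster beside Ccr2. Windows of the Cd300 receptor genes Cd300lb, Cd300c and Cd300ld and of Arhgap25 were next.

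Pol II, measured in other libraries of KO macrophages, moved the same way at most promoters that were called. Of 679 genes with higher H3K27ac and a Pol II value, 527 (77.6%) had a Pol II call upwards and 5 downwards. Of 1124 genes with lower H3K27ac, 743 (66.1%) had Pol II lower and 20 higher. Among the 9701 genes not called for H3K27ac the shares were 8.73% and 12.4%, and over all 11504 genes 12.1% and 17.0%. In the Pol II comparison itself 4120 of 13406 genes were called (30.7%). The median Pol II change was 2.03, -1.40 and -0.14 in the 3 classes. Without replicate 1 the shares were 76.9% and 64.6%.

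Il6 had a Pol II change of 5.44 beside 3.67 for H3K27ac. Nos2, whose H3K27ac change depends on the added constant, had 9.06 for Pol II. For Ccr2 Pol II fell by 5.23 and for Myc by 5.66. Genes whose promoter acetylation was not called could still lose Pol II, as Fos did, by 1.72, and Csf1r, by 1.67. Tnf, whose promoter was acetylated throughout, had a Pol II change of 1.37, past the threshold. These values are on one log2 scale but for different antibodies and windows, and no test between antibodies was made.

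Motif matches in the central 1000 bp differed in share between regions that gained and lost acetylation. Of distal regions that rose, 28.1% held an ISRE match, against 14.8% of those that fell, 18.5% of those not called and 18.8% of all tested distal regions. For PU.1 the order was the reverse, with 9.01% of regions that rose, 17.8% of those that fell and 14.0% of those not called. The κB motif was rare, in 2.34% of distal regions that rose, 0.957% of those that fell and 1.42% of all. AP-1 matches were found in 29.5% and 26.8%, an order that turned without replicate 1, to 26.5% and 28.4%. NBRE matches were in 4.92% of regions that rose and 5.66% of those that fell. GAS and MEF2 shares differed little between distal regions that rose and fell, 29.9% and 28.3% for GAS and 16.6% and 17.7% for MEF2. These are shares of letters and were not tested.

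At promoter regions ISRE matches were in 22.9% of those that rose, 10.4% of those that fell and 12.6% of all, and AP-1 matches in 22.9%, 15.3% and 14.5%. For PU.1 the shares were 7.40%, 12.6% and 8.38%, and for GAS 30.5%, 22.7% and 23.6%. Without replicate 1 the ISRE shares at distal regions were 30.7% and 14.6% and at promoter regions 24.2% and 10.1%, and the PU.1 shares at distal regions 9.28% and 17.6%. Of the 300-base RefSeq promoters 16505 matched a gene by symbol, and 9357 of those genes were tested. An ISRE match was found in 12.3% of the promoters with higher H3K27ac, 2.33% of those with lower and 3.33% of the 9357 tested. An AP-1 match was found in 6.43%, 4.78% and 3.44% of them and a κB match in 1.22%, 0.333% and 0.438%. Among all 16505 promoters the shares were 3.47% for ISRE, 4.51% for AP-1 and 0.406% for κB.

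**Figure D4:**
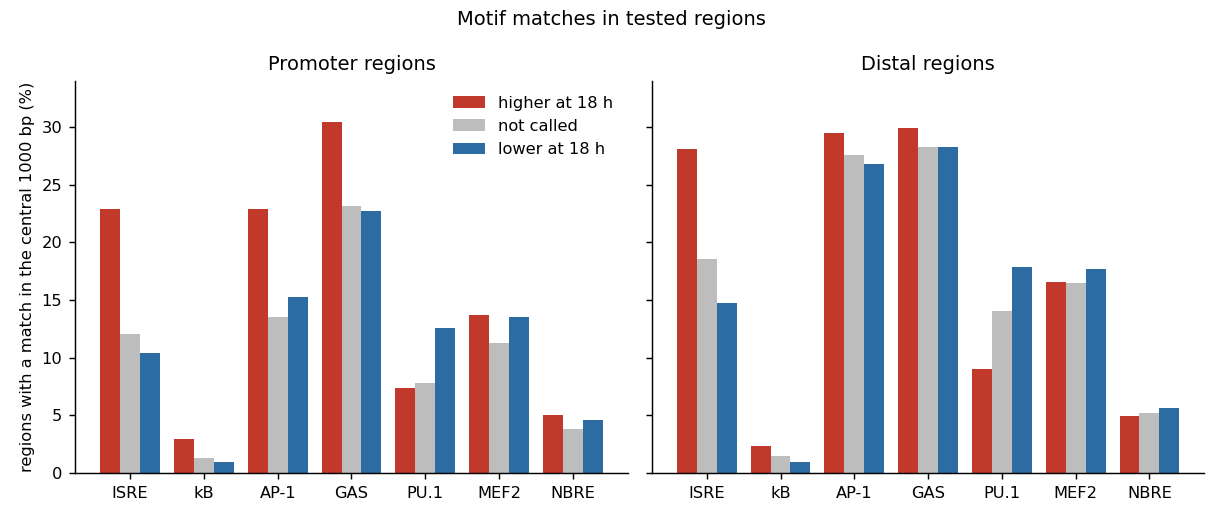
Percentage of tested promoter regions (left) and distal regions (right) with a motif match on either strand in the central 1000 bp, for regions that rose (red), were not called (grey) or fell (blue) at 18 h in KO. Bars are shares of all regions in a class, without error, since regions are not replicates. In the distal panel ISRE stands at 28.1% and 14.8%, and PU.1 at 9.01% and 17.8%, for regions that rose and fell.

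The genes in which replicate 1 stood apart can be named. Its value differed from both other 18 h libraries by over 1 on the log2 scale, in 1 direction, at 511 gene promoters above and 347 below, together 7.16%, whereas in each of the other 5 libraries this was so at no more than 0.35% of gene promoters. Over regions the share was 15.9% in replicate 1 and at most 1.09% in the others. Among 339 genes of the lists it was apart at 34, above at 14 and below at 20. Above were Atf3, Slc7a11 and Fosl2, given before, the chemokine Cxcl2 with 266, 63.6 and 46.3 normalized tags, and Tlr2, the receptor of bacterial lipoproteins, with 776, 312 and 278. Tlr2 was called higher only when KO 18 h replicate 3 was left out, among the fits that left out 1 library. Cxcl2 was at 509, 274 and 244 in the KO 1 h libraries. Below were C1qa, Apoe, Mertk, Gbp4 and Iigp1, given before or in the plot, and C1qb with 122, 675 and 678 and C1qc with 52.1, 527 and 554, which both had 744, 742 and 749 at 0 h. C1qb and C1qc share a region and are 1 observation.

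The departure of replicate 1 weighed on the fits in both directions. Weights estimated by limma were 0.0595 for replicate 1 and 0.622 to 3.04 for the other 5 libraries. Leaving it out raised the counts of calls in each class, as given above, and 91.6% of the promoter regions that rose, 91.6% of those that fell, 90.4% of the distal regions that rose and 95.8% of those that fell were called again in the same direction. What sets this library apart, and whether its time label is right, was not tested. If the label were wrong, the values of KO at 18 h without replicate 1 would be those that apply.

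**Figure D5:**
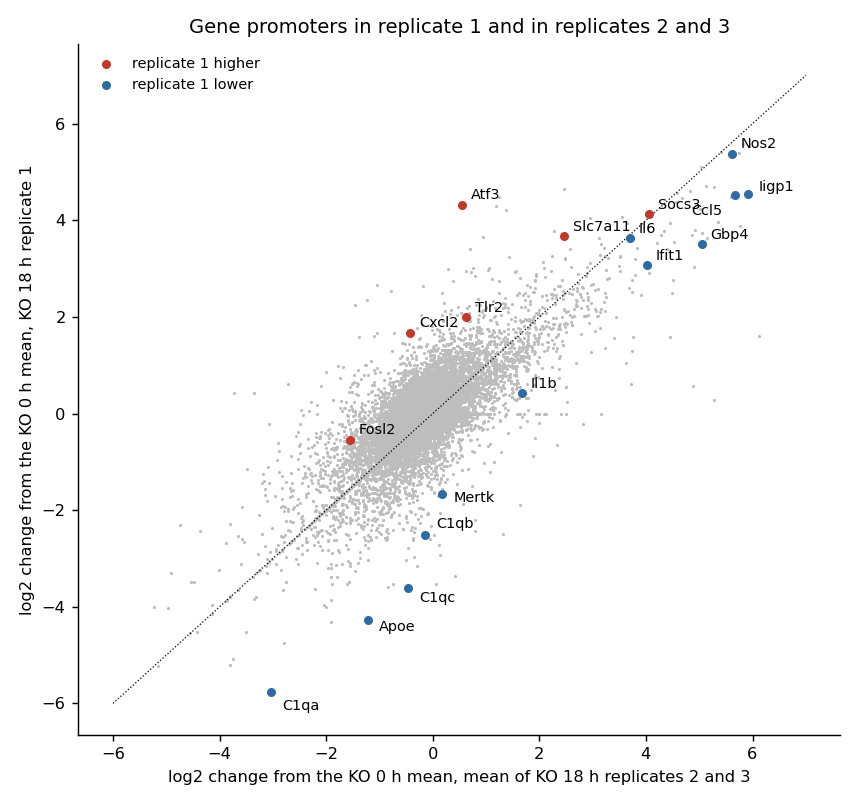
Change from the KO 0 h mean on the log2(normalized tags + 10) scale at each tested gene promoter (grey), for KO 18 h replicate 1 (vertical axis) against the mean of replicates 2 and 3 (horizontal axis), with the dotted line at equal changes. Named genes are red where replicate 1 was higher and blue where it was lower. Atf3 lies far above the line, with 696 normalized tags in replicate 1 and 50.5 and 34.1 in the others, and C1qa, Apoe, C1qc, C1qb and Mertk lie below it.

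WT macrophages, with 3 libraries at each time, allowed the 18 h change to be compared between genotypes. In WT 751 of 12054 gene promoters rose (6.23%) and 1030 fell (8.54%). The same direction was called in both genotypes at 1390 gene promoters, of 1933 called in KO, and no promoter was called in opposite directions. The test of the difference itself, the genotype by time interaction, called 48 of 12054 gene promoters (0.398%), with the change in KO above that in WT at 21 and below it at 27. Without KO 18 h replicate 1 it called 122 (1.01%), 58 above and 64 below, and 47 of the first 48 were among them. It called 26 without WT 18 h replicate 1 and 13 with a replicate block. Of 339 list genes none was called with all libraries.

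Without replicate 1 the interaction called 5 list genes, Ptgs2, Il1rn, Il12a, Egln3 and Zbtb46. Ptgs2 had a WT change of 2.22 beside 3.16 in KO. Its interaction was 0.94 with all libraries (limma, adjusted p = 0.062) and 1.03 without replicate 1. Il1rn, the interleukin 1 receptor antagonist, had 87.3, 90.1 and 140.0 and then 265, 283 and 302 normalized tags in KO, and 104, 94.0 and 84.6 and then 118, 151 and 117 in WT. Its interaction was 0.96 (adjusted p = 0.062, limma) and 1.01 without replicate 1. Il12a was listed at 0 in the 6 WT libraries at 0 h and 18 h, so that its difference rests on the uneven KO 18 h values. Egln3, an oxygen sensor, and Zbtb46, a dendritic cell factor, had interactions of -1.17 and -1.03 without replicate 1.

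Il6 rose in both genotypes, by 3.67 in KO and 2.99 in WT, where its values were 22.5, 20.3 and 17.8 and then 236, 221 and 231 normalized tags. The interaction of 0.69 did not pass (adjusted p = 0.070, limma). For Itgam the KO libraries fell to 293, 365 and 325 and the WT libraries were at 544, 581 and 589 at 18 h, from 671, 798 and 655 at 0 h, with an interaction of -0.90 (limma, adjusted p = 0.0079) that was below the size threshold. At the Mir155hg region the WT libraries had 18.1, 27.9 and 17.3 normalized tags at 0 h and 2439, 2264 and 2462 at 18 h, below KO replicates 2 and 3 and above KO replicate 1.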

How the data were processed

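The 6 H3K27ac libraries of KO macrophages (0 h and 18 h, n = 3 each) were the main material, with WT H3K27ac, KO H3K27ac at 1 h, KO Pol II and the 2 KO inputs beside them. According to the methods, Skewer was used for trimming and HISAT2 for alignment to mm10 (version 2.1.0 in the submitters' processing notes), after which the authors removed duplicates and called regions per library with HOMER in histone mode, without an input control (windows of 500 bp, Poisson p of 0.001, stitched within 1000 bp). The deposited values are signal: tags in each region per 10 M tags of the library. Whole reads were not recovered from them, so no count test was used.

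Regions were merged on overlap and their signal was summed per library. Gene starts came from GENCODE release 21 (mouse, GRCm38; 21884 protein-coding genes). A region shared by several promoter windows was divided by overlap. Regions found in 2 or more of 3 libraries of a group were tested with limma 3.58.1 (R 4.3.3; trended variance) on log2(normalized tags + 10), with Benjamini-Hochberg adjustment over all tested features. A call needed an adjusted p under 0.05 and a log2 change over 1 in size. The WT comparison and the genotype by time interaction were fitted over the 12 libraries of both genotypes, and Pol II was summed from 500 bp before the gene start to 500 bp past its end. Single library values were compared by the exact two-sided permutation test. The fits were tested on simulated data. Tables were made with Python 3.11.15, pandas 2.3.3 and numpy 2.4.6.

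The members and the gene lists (343 genes, of which 339 matched) were chosen with earlier results of these data known. Named regions were the 5 with the largest change in each kind and direction, among those called with and without KO 18 h replicate 1 whose groups did not overlap. Named genes were up to 4 called genes per list and direction, with Nr4a1, Igsf3, some cytokines, AP-1 factors and reference genes in every case. C1qb, C1qc, Apoe, Mertk, Cxcl2, Tlr2 and Il12a were added after their values were seen, as were the other members of a list named with their values. The alternatives were other pseudocounts, scalings, filters, windows and merging rules, array weights, a replicate block, a fit with 9 KO libraries and leaving out each library. The counts of gene lists, motif shares and Pol II shares without KO 18 h replicate 1 were alternatives chosen after seeing the data. Results for a few genes are not reported here.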

Additional observations from a re-analysis of the deposited data

Results flagged for a closer look

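The interaction of genotype and time called 48 gene promoters, and 11 of them were chosen for display after their values were seen. H3K27ac values are normalized tags within 2500 bp of the gene start and Pol II values those over the gene, in replicates 1, 2 and 3, and each difference is the log2 change in KO minus that in WT, from limma.

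Among the 9 genes whose signed change was lower in KO than in WT, Trim12a differed by -2.25 (adjusted p = 1.2e-05). It was listed at 0 in the KO H3K27ac and Pol II libraries at both times and in both KO inputs, so that the difference is the WT change with its sign turned and says nothing of the LPS response in KO. In WT it had 259.5, 293 and 259.5 at 0 h and 1342, 1369.6 and 1273 at 18 h. Trim5, beside it on chromosome 7, differed by -2.21, with 14.1, 19.9 and 15.5 and then 21.4, 33.1 and 27.7 in KO, and 101.5, 103 and 107 and then 677, 739.9 and 779 in WT, and its KO Pol II change of 1.86 was called. Both encode members of the family of TRIM proteins that restrict retroviruses, whose genes are close copies, so that the division of reads among them is uncertain. Gm4070 differed by -1.65. Its H3K27ac was listed at 0 in KO at both times, whereas its KO Pol II went from 0.28, 0 and 6.04 to 625, 654 and 574, a called change of 5.73. Mndal differed by -1.50 and Ifi203 by -1.49, and the pair, of a family of cytosolic DNA sensors, shares a region and is 1 observation. Mndal had 391.9, 408 and 380.2 and then 397, 390.2 and 346 in KO, with 700.0, 558 and 527 at 1 h, and 237, 245 and 239.9 and then 698, 632 and 679.5 in WT. KO Pol II rose at both, by 2.15 for Mndal and 2.30 for Ifi203.

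Fcgr2b, the inhibitory Fc receptor, differed by -1.33, with 108, 101 and 94.8 and then 208, 163 and 147 in KO, and 134, 161 and 136 and then 623, 591 and 628 in WT. Cabp4 differed by -1.94, with 226, 215 and 249.7 in KO above 51.4, 60.3 and 63.6 in WT at 0 h, and 282 to 297 in KO beside 310.4 to 335 in WT at 18 h. Xylt2, a xylosyltransferase gene, differed by -1.40 and fell in KO, to 295, 271 and 268, while the WT 18 h values were 879, 877 and 824. Its KO Pol II change was -0.18 and not called. Lrp2bp differed by -1.32.

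Of the 2 genes whose change was higher in KO than in WT, Plk4, the kinase that starts centriole duplication, differed by 1.20, with KO 18 h values of 553, 489 and 454 above WT 18 h values of 227, 200.3 and 268. Ifi27l2a, an interferon-induced gene, differed by 1.31, with 18 h values of 342, 350.1 and 293 for KO against 146, 147 and 130.3 for WT. By the methods WT mice were littermates of KO mice, and whether the genotypes differ in genetic background at loci such as Trim12a and Gm4070 was not tested.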

How the results depend on the processing

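Values without input-matched subtraction, with regions called anew in each library, limit these results, and a listing at 0 is the floor of the search. In KO, same-numbered H3K27ac libraries at 0 h and 18 h did not deviate together (correlations of -0.0145, -0.0040 and -0.0145). With 3 libraries at each time, and KO 18 h replicate 1 apart, this cannot decide whether the replicate numbers pair the samples. Pairing was not looked at in WT. A replicate block gave 5974 regions higher and 12270 lower, 814 and 1391 for promoter regions, 5160 and 10879 for distal regions, 732 and 1223 for gene promoters, and 13 in place of 48 gene promoters for the interaction.

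With a pseudocount of 50 there were 2648 regions higher and 4267 lower, 610 promoter regions lower, 2078 and 3657 distal regions and 472 and 498 gene promoters. Regions found in all 6 libraries gave 2916 and 5309, with 917 promoter regions lower and 2260 and 4392 distal regions. This is a test of fewer regions. Regions without input overlap gave 2630 and 4672, with 239 and 583 promoter and 2391 and 4089 distal regions, again fewer regions. Centring gave 1316 and 888 promoter regions. A pseudocount of 1 gave 80 gene promoters for the interaction. The cause was not tested for the pseudocounts, the centring, the block and the libraries left out.

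Leaving out each library in turn gave 5112 to 6911 regions higher and 11013 to 13579 lower, 732 to 898 and 1227 to 1599 promoter regions, 4370 to 6013 and 9786 to 11980 distal regions, and 656 to 801 and 1052 to 1400 gene promoters. Pol II genes ran from 4078 to 4208, the difference in regions per library from -5410 to -3120, and the difference in promoter share from 2.08 to 3.12 points. For the interaction the range was 26 to 122, with 31 without KO 0 h replicate 2, 122 without KO 18 h replicate 1, 82 without KO 18 h replicate 2 and 26 without WT 18 h replicate 1.

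Of the single genes and regions under the alternatives, 1816 values kept direction and call, 77 lost the call, 11 gained it and 16 reversed, none of which was called with all libraries. Reversed were Junb (-0.049), Jund (-0.073), Hprt (0.049) and Zeb2 (-0.065) under quantile normalization, Hprt (0.040) and Actb (0.086) when gene promoters were centred, and Actb (0.26), Cxcl2 (-0.28) and Mertk (0.12) with array weights. The others reversed when a library was left out, which gave ranges of -0.063 to 0.15 for Jund, -0.31 to 0.11 for Hprt, -0.19 to 0.31 for Actb, -0.43 to 0.72 for Cxcl2 and -0.75 to 0.18 for Mertk. For Actb, Cxcl2 and Mertk the library was KO 18 h replicate 1, and for Jund and Hprt KO 18 h replicate 2 or 3. Calls were lost most often for Gas6, Mt2, Il1b, Il12a and Ccl4. Socs1, Tapbp, Tnfaip3, Tnfsf15, Trem2, Fosl2 and Atp6v0d2 lost theirs only in a window of 1000 bp. Bnip3, Ccl4, Cebpb, Elane, Gas6, Hif1a, Il12a and Mt2 lost theirs in that window and in other fits.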
